A study of Triticum aestivum with 4 samples.

Results

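Heat shock proteins and chaperones are described here in roots and leaves of the wheat (Triticum aestivum) cultivar MGS1 Aliança under drought. A wheat transcript was taken as a member when its best Arabidopsis thaliana match, at an E-value of 0.001 or lower, had a symbol starting with HSP, HSC, BIP or CPN in upper or lower case. A match whose protein name holds heat shock or chaperon was also taken, unless the name also holds the word factor. The rule used names alone and no read count. It found 26 of the 9199 genes with a match in roots and 15 of the 7012 in leaves, 27 of 10711 genes over both tissues. Both tissues shared 14 of these genes, 12 were found in roots only, and Cpn60beta3 was found in leaves only. Every member is named by its Arabidopsis match, so that a name stands for the nearest relative and not for a known wheat gene.

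Each pot held 3 plants, which were taken at tillering when 5 weeks old. Control pots stayed at 100% of field capacity throughout, and drought pots had 75% for 2 weeks and were left dry for the last 3 weeks. Roots and leaves were taken separately, each pooled over the plants of a single pot, so that control and drought of each tissue had 1 library each and no replicate. Every test below therefore compares 2 libraries, each interval is a 95% interval for counting error only, and the spread between pots is unknown.

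Molecular chaperones bind unfolded or partly folded proteins and help them to fold, keep them from clumping, or take clumps apart. HSP70 proteins bind short hydrophobic stretches in cycles of ATP use, HSP90 proteins act late in the folding of signalling proteins such as kinases and receptors, and chaperonins enclose a protein in a barrel. Small HSPs hold unfolding proteins without ATP, and HSP100 proteins such as HSP101 pull them out of aggregates. Many of these genes are induced by heat through heat shock factors, and plants also use them in drying tissue and seeds.

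In this assembly an isotig is an assembled transcript and an isogroup is a set of isotigs that share contigs, the nearest thing to a locus. The members comprised 98 isotigs in 65 isogroups in roots and 41 isotigs in 30 isogroups in leaves. A gene count is the sum, over the isogroups with 1 Arabidopsis match, of the reads of 1 isotig in each. These counts summed to 108540 reads for control roots, 95915 for drought roots, 83354 for control leaves and 62635 for drought leaves, out of 299134 to 319997 sequenced reads per library in leaves and 300665 to 305731 in roots. The leaf markers RBCS1A, RCA, LHCB4.1 and CA1 had reads in leaves and none in roots, the root marker NRT2:1 had 14 and 0 reads in roots and none in leaves, and CASP1 had no read. SCR, taken as a root marker, had 2 reads in the leaf control library and none elsewhere. The wheat isotigs of the members matched their Arabidopsis relatives at a median identity of 81% in roots (39% to 100%) and 78% in leaves (46% to 95%), against 59% and 63% over all matched isogroups. The matches of the members covered a median of 69.7% of the Arabidopsis protein in roots and 43.5% in leaves.

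In the drought library of roots, 4 chaperone genes were up-regulated: the cytosolic HSP70 HSC70-1, the disaggregase HSP101, the class II small heat shock protein HSP17.6II and the truncated HSP70 HSP70T-2. The copper chaperone CCH was down-regulated. In leaves, the cytosolic HSP90 HSP81-2 and the HSP110-like protein HSP91 were up-regulated and no member was down-regulated. A call means an unadjusted p under 0.001 in the MARS model of DEGseq, which compares the ratio of 2 counts with the spread that random sampling of reads gives. Over all root genes, 3.63% were up-regulated and 5.16% down-regulated. In leaves 5.06% of all genes were called up and 2.58% called down. For genes of at least 10 reads the up-regulated share was 6.98% and the down-regulated 9.93% in roots, against 11.9% and 6.09% in leaves, and 19 of the 26 root members and 9 of the 15 leaf members had that many reads.

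**Figure D1:**
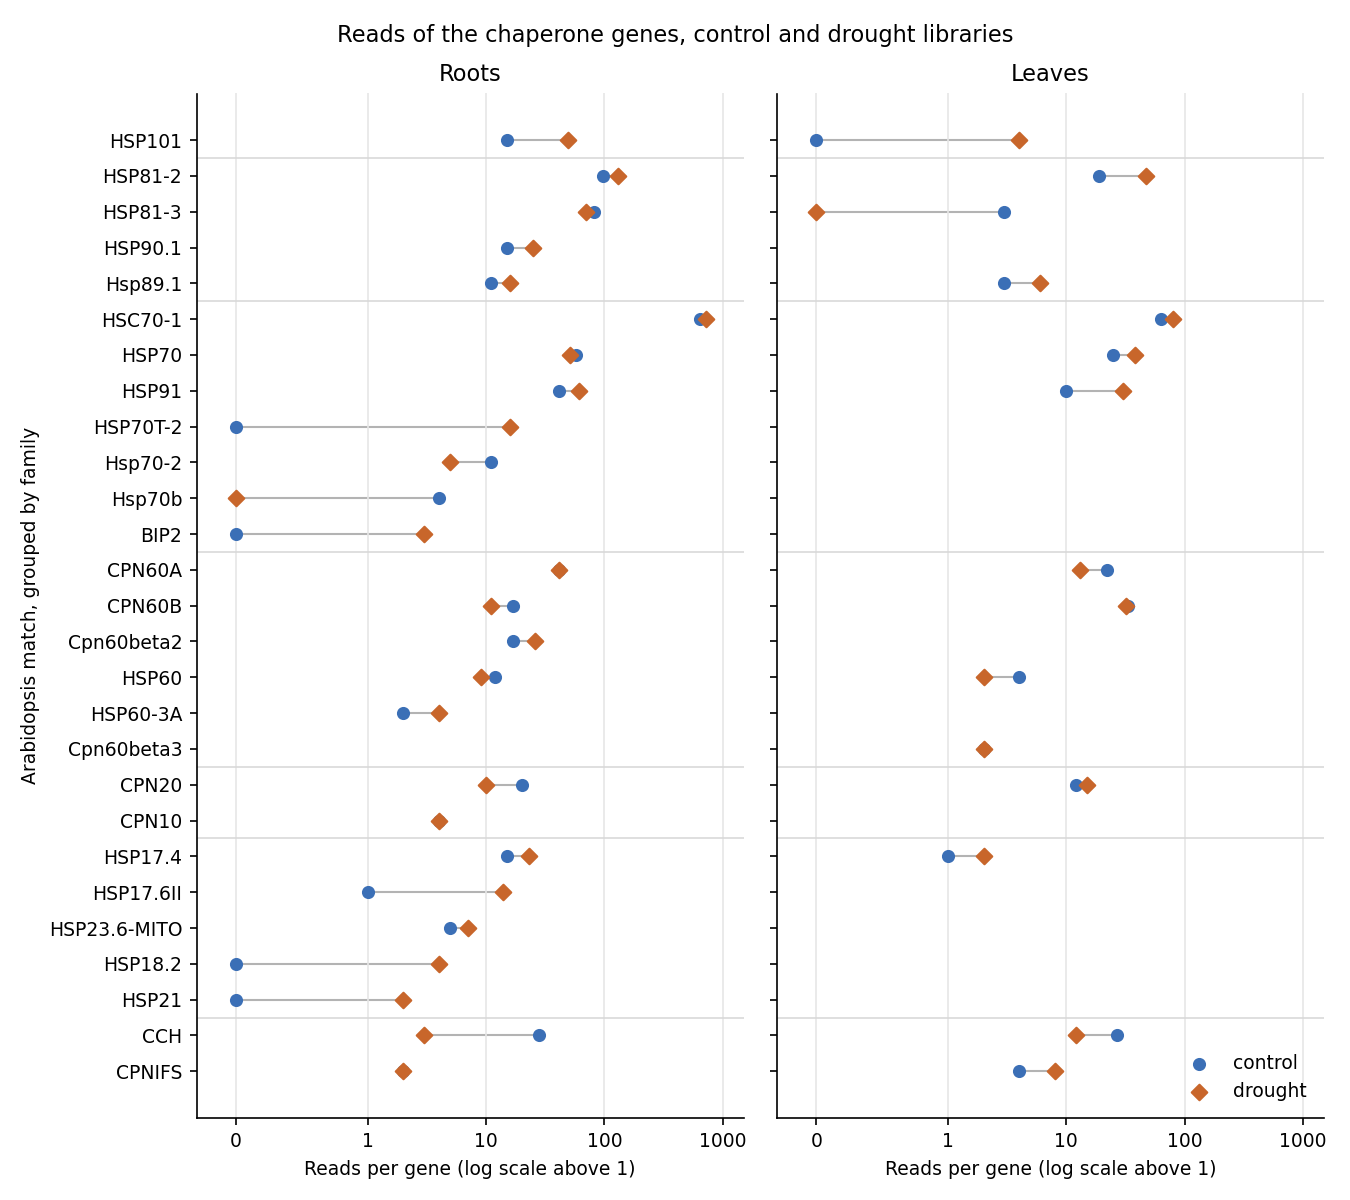
Reads of each chaperone gene in the control (circles) and drought (diamonds) libraries of roots and leaves, on an axis that is logarithmic above 1 read, with lines between the 2 libraries and families separated by horizontal rules. Equal counts hide the circle behind the diamond, as for CPN60A in roots at 41 and 41 reads. HSC70-1 is the farthest to the right in both tissues, and HSP70T-2 goes from 0 to 16 reads in roots.

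Summed over all members, the chaperones held 1.05% of the gene reads of the root control library (0.991% to 1.11%) and 1.37% of those of the root drought library (1.29% to 1.44%), 1140 and 1310 reads. In leaves they held 0.274% (0.239% to 0.311%) and 0.463% (0.411% to 0.519%), 228 and 290 reads. The share under drought was 1.30 times the control share in roots (1.20 to 1.41) and 1.69 times in leaves (1.42 to 2.02). Without HSC70-1, which held 55.8% of the member reads in roots and 27.4% in leaves, these ratios were 1.33 (1.18 to 1.51) and 1.70 (1.38 to 2.1). In these pools of whole organs, fewer cells of a type and less RNA per cell cannot be told apart.

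The leaf ratios stand on a shifted background. The median log2 ratio of drought to control over all leaf genes with at least 10 reads was 0.49, and that of the members was 0.74. In roots the medians were 0.02 over all genes and 0.60 over the members. Reads of RBCS1A, the small subunit of Rubisco, went from 6764 to 901 in leaves, and those of RCA, the Rubisco activase, from 1822 to 362. The part of these reads in the shift was not tested. With the totals of all sequenced reads, the isogroup totals, TMM or size factors, the ratio for all leaf members lay between 1.14 and 1.41, and that for all root members between 1.15 and 1.26. Of the genes measured, 73.1% of the root members and 51.0% of all root genes had a higher share under drought, and 73.3% and 63.5% in leaves.

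Among the members by the naming rule, sorted by the compartment where the Arabidopsis protein works, the cytosolic ones carried most of this. The 13 cytosolic members of roots held 981 reads under control and 1172 under drought conditions, a share 1.35 times as large (1.24 to 1.47). The 5 plastid members held 95 and 90 reads, a ratio of 1.07 (0.795 to 1.45), and the 5 mitochondrial ones held 34 and 40 reads, a ratio of 1.33 (0.822 to 2.17). In leaves the 7 cytosolic members went from 121 to 200 reads, 2.20 times the share (1.75 to 2.78), while the 4 plastid members had 69 and 62 reads, 1.20 times (0.835 to 1.71). With other totals the plastid ratio lay between 0.947 and 1.04 in roots, above 1 with TMM and below 1 with the others, and between 0.806 and 0.998 in leaves, whereas the cytosolic ratio stayed above 1 in both. Among these sums only the intervals of the cytosolic ones left out 1, and the difference between compartments was not tested. The sums depend on the naming rule, which leaves out HSP70 genes of plastids and mitochondria under other symbols. Of these, the plastid cpHsc70-1 had 33 and 40 reads in roots and 71 and 98 in leaves. The mitochondrial MTHSC70-2 had 21 and 53 reads in roots and 11 and 20 in leaves. Other loci outside the rule had a lower share under drought, such as AT5G51440 in roots with 19 and 16 reads.

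**Figure D2:**
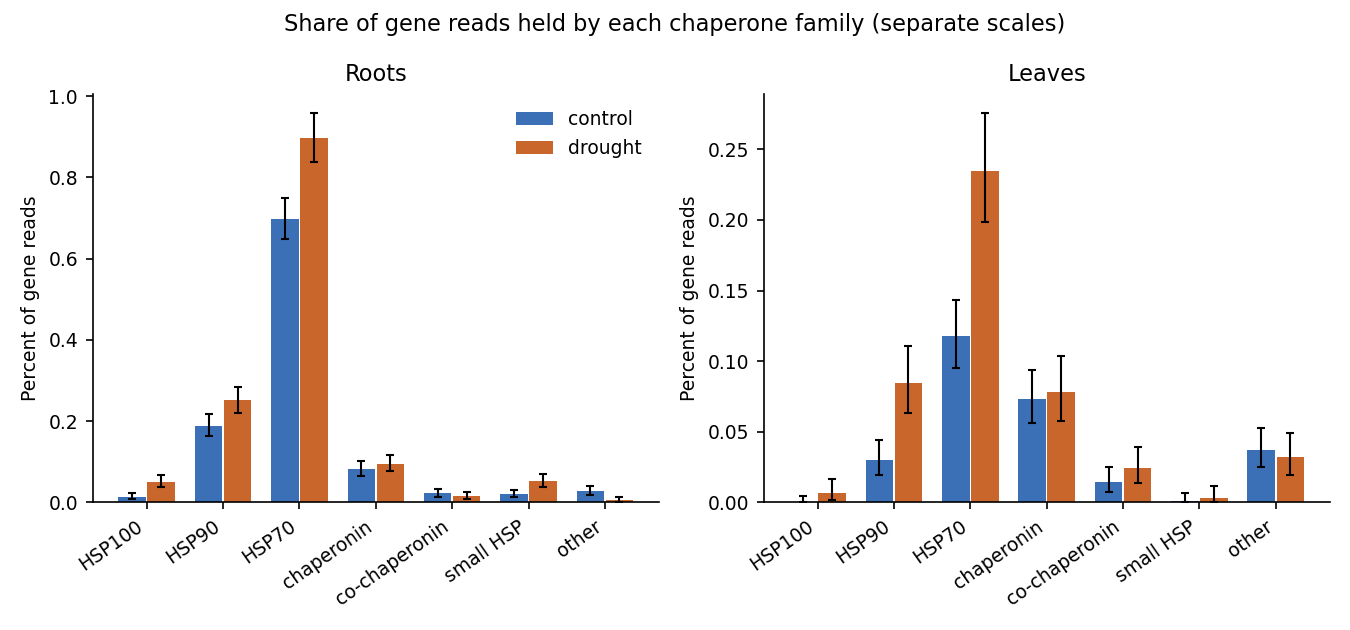
Percent of the gene reads of each library held by the members of each chaperone family in roots (left) and leaves (right), with exact binomial 95% intervals that cover counting error only. The vertical scales differ. The HSP70 bars are the tallest in both tissues, and the control and drought intervals of the chaperonins overlap.

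HSP101 is the cytosolic HSP100 that gives Arabidopsis its acquired tolerance of high temperature. It had 15 reads under control and 49 under drought conditions of roots. The share was 3.70 times as large under drought (2.04 to 7.10), with an unadjusted p of 1.44e-06 by the MARS model. These reads came from 3 isogroups that did not move alike. One of them went from 6 to 34 reads, 6.41-fold higher (2.66 to 18.7), and was up-regulated on its own. A second went from 8 to 14 reads, 1.98-fold higher with an interval that included 1 (0.775 to 5.45), and the third had 1 read in each library. Both larger isogroups were 82% identical to Arabidopsis HSP101, with isotigs of 2786 and 2909 bases. The match covered 99.1% of the protein for the isotig of 2786 bases and 39.5% for that of 2909 bases. Without the isogroup of 34 reads, HSP101 had 9 and 15 reads and no call, 1.89-fold (0.773 to 4.89). In leaves HSP101 had 0 reads under control and 4 under drought conditions, 1.77-fold higher with the control set to 3 reads. The counting interval of its ratio began at 0.878, and HSP101 was not called (unadjusted p = 0.0928 by the MARS model).

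HSC70-1, the main cytosolic HSP70 of unstressed cells, was the most abundant member per length of transcript. Its level in roots was 239 reads per kilobase per 100000 gene reads under control and 302 under drought conditions. The next levels, on the same scale, were those of HSP81-2 at 41.5 and 64.7 and of HSP70 at 32.0 and 31.4. In leaves the level of HSC70-1 was 41.8 under control and 62.8 under drought conditions. There CCH stood at 47.4 and 28.1, HSP70 at 16.9 and 47.6, and HSP81-2 at 11.2 and 36.0, so that HSC70-1 was second in the control and first under drought among the members. In these sums, reads on short isotigs weigh more than reads on long ones. Of the 38 HSP70 reads in drought leaves, 34 lay on an isotig of 2196 bases. Isotigs of 316 and 249 bases had 2 reads each. In reads alone, the share of HSP70 in leaves was 2.02 times the control share. Roots and leaves were assembled apart, and levels were not tested across tissues.

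In reads, HSC70-1 had 643 under control and 724 under drought conditions of roots. This was 1.27-fold higher (1.14 to 1.42) and was called by the MARS model with an unadjusted p of 6.97e-06. The call was lost with the totals of all sequenced reads, with the isogroup totals and with size factors. In leaves it had 63 and 79 reads, 1.67-fold higher (1.18 to 2.36), with an unadjusted p of 0.00223 by the MARS model, and was not called.

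Behind the modest sum for HSC70-1, its 12 root isogroups moved in both directions. The largest isogroup went from 264 to 305 reads, 1.31-fold higher (1.11 to 1.55). Isogroup 855 went from 9 to 64 reads, 8.05-fold higher (3.98 to 18.4), and isogroup 4489 from 20 to 47, 2.66-fold higher (1.55 to 4.74), and both were up-regulated. Isogroup 5323 went the other way, from 18 to 6 reads, 2.65-fold lower (1.01 to 8.16), without a call. Of the 10 isogroups with at least 10 reads, 4 had an interval above 1, 1 had an interval below 1 and 5 had an interval that included 1. The others included the pair of large isogroups with 150 and 126 reads and with 68 and 62 reads.

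Isogroup 855 held 1.40% of the HSC70-1 reads in the control library (0.642% to 2.64%) and 8.84% in the drought library (6.87% to 11.1%). Its isotig of 2269 bases was 88% identical to Arabidopsis HSC70-1. The other isogroups with at least 10 reads were 91% to 94% identical, except isogroup 592. It was 56% identical over 6.76% of the protein, with 6 reads in each library. Without isogroup 855, HSC70-1 had 634 and 660 reads, 1.18-fold higher (1.05 to 1.32), and was not called (unadjusted p = 0.00309 by the MARS model). In leaves 1 isogroup held most of the reads, 55 under control and 70 under drought conditions.

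**Figure D3:**
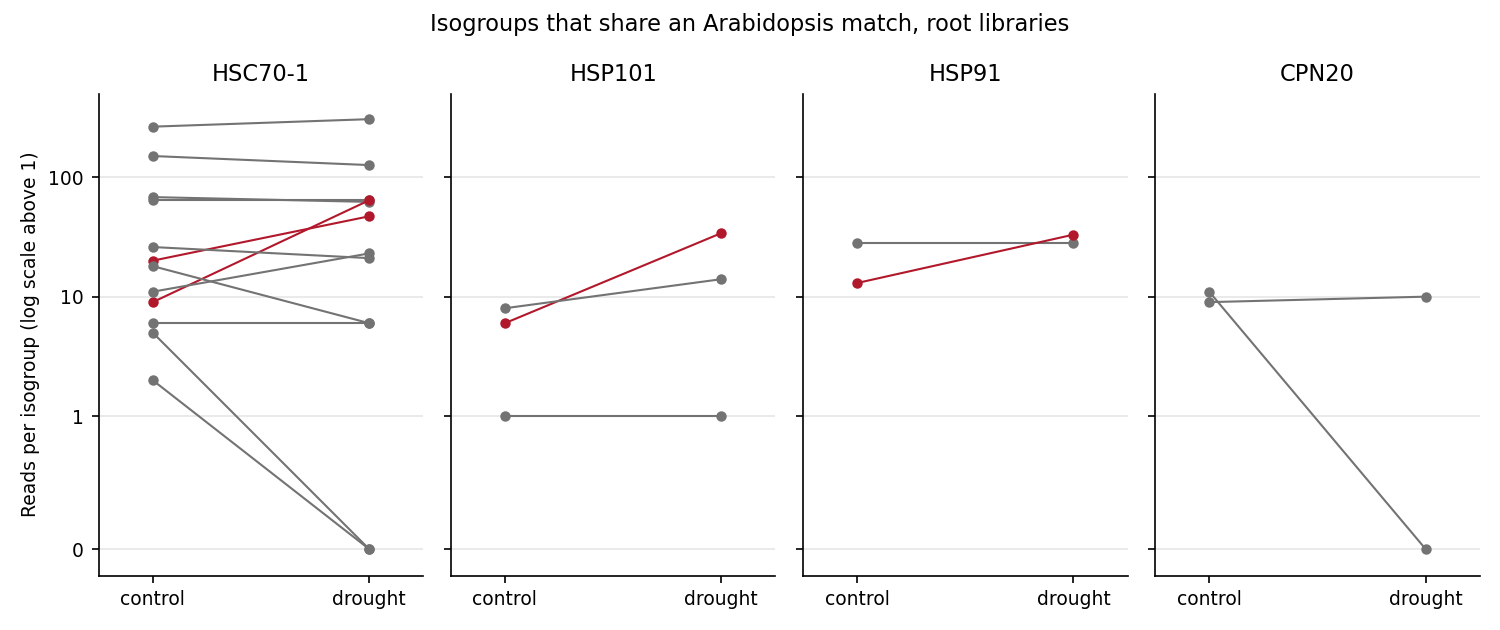
Reads of each isogroup of HSC70-1, HSP101, HSP91 and CPN20 in the control and drought libraries of roots, 1 line per isogroup, on an axis that is logarithmic above 1 read. Red lines are isogroups up-regulated on their own. Lines of the same gene differ in slope: HSC70-1 has lines from 9 to 64, from 18 to 6 and from 64 to 64 reads, and CPN20 has lines from 11 to 0 and from 9 to 10.

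The other HSP70 proteins differed from each other. HSP70T-2, a truncated member of the family, had no read in the root control and 16 in the root drought library. It was 6.04-fold higher with the control set to 3 reads, and the counting interval of the ratio began at 4.36. The unadjusted p was 4.13e-05 by the MARS model, and HSP70T-2 had no isotig in leaves. Its single isotig of 2030 bases was 62% identical to the Arabidopsis protein. HSP70, a cytosolic form close to HSC70-1, had 57 and 51 reads in roots, 1.01-fold (0.680 to 1.5). In leaves it had 25 and 38 reads, 2.02-fold higher (1.19 to 3.50), and was not called (unadjusted p = 0.00543 by the MARS model).

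The cytosolic forms Hsp70-2 and Hsp70b and the endoplasmic reticulum form BIP2 were found in roots alone and had few reads. Hsp70-2 went from 11 to 5 reads, Hsp70b from 4 to 0 and BIP2 from 0 to 3, and none was called. The reads of Hsp70b came from an isogroup in which another isotig matches ERD2, also an HSP70, so they count for both names. Summed, the 7 HSP70 genes of roots held 756 and 860 reads, 1.29 times the control share (1.17 to 1.42), and the 3 of leaves held 98 and 147 reads, 2.00 times (1.54 to 2.6). With other totals the leaf ratio lay between 1.35 and 1.67. With HSP70 loci under other symbols the ratios were 1.32 (1.20 to 1.45) in roots and 1.92 (1.60 to 2.32) in leaves.

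HSP91, named heat shock protein 91 in Arabidopsis, belongs to the HSP110 branch of the HSP70 superfamily, whose members exchange nucleotides on HSP70. It was one of the 2 genes called in leaves, with 10 reads under control and 30 under drought conditions, 3.99-fold higher (1.90 to 9.15; unadjusted p = 4.22e-05 by the MARS model). All of these reads came from 1 isogroup, whose isotig of 2524 bases was 70% identical to the Arabidopsis protein. In roots it had 41 and 61 reads, 1.68-fold higher (1.11 to 2.57), and was not called as a gene. The pair of root isogroups behind this sum split. One had 28 reads in both libraries, while the other went from 13 to 33, 2.87-fold higher (1.47 to 5.95), and was up-regulated on its own. Without that isogroup the root ratio of HSP91 was 1.13 (0.646 to 1.98).

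The HSP90 family is read through its most abundant member, HSP81-2, a cytosolic HSP90 expressed without stress. In leaves it had 19 reads under control and 47 under drought conditions. This was 3.29-fold higher (1.90 to 5.94), with an unadjusted p of 3.66e-06 by the MARS model. One isogroup, 92% identical to the Arabidopsis protein, carried 17 and 43 of these reads. In roots HSP81-2 had 97 and 130 reads, 1.52-fold higher (1.16 to 1.99), and its unadjusted p of 0.00178 by the MARS model missed the threshold. Both leaf calls were lost with TMM, which moved the leaf median of all genes to -0.07, and that of HSP91 also with size factors.

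The other HSP90 genes were not called. HSP81-3, a close cytosolic relative of HSP81-2, had 82 and 70 reads in roots (ratio of shares 1.04-fold higher in the control, 0.743 to 1.45) and 3 and 0 reads in leaves. The heat-inducible HSP90.1 had 15 and 25 reads in roots, 1.89-fold (0.956 to 3.85), and was not found in leaves. The mitochondrial Hsp89.1 had 11 and 16 reads in roots and 3 and 6 in leaves. Summed, the HSP90 family held 205 and 241 reads in roots, 1.33 times the control share (1.10 to 1.61), and 25 and 53 reads in leaves, 2.82 times the control share (1.72 to 4.74). With other totals the leaf ratio lay between 1.90 and 2.35. With HSP90 loci under other symbols, the plastid CR88 and the endoplasmic reticulum form SHD, the sums were 285 and 298 reads in roots, 1.18 times (1.00 to 1.40), and 80 and 100 in leaves, 1.66 times (1.23 to 2.26). SHD had 70 and 43 reads in roots and 45 and 31 in leaves, and neither locus was called.

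**Figure D4:**
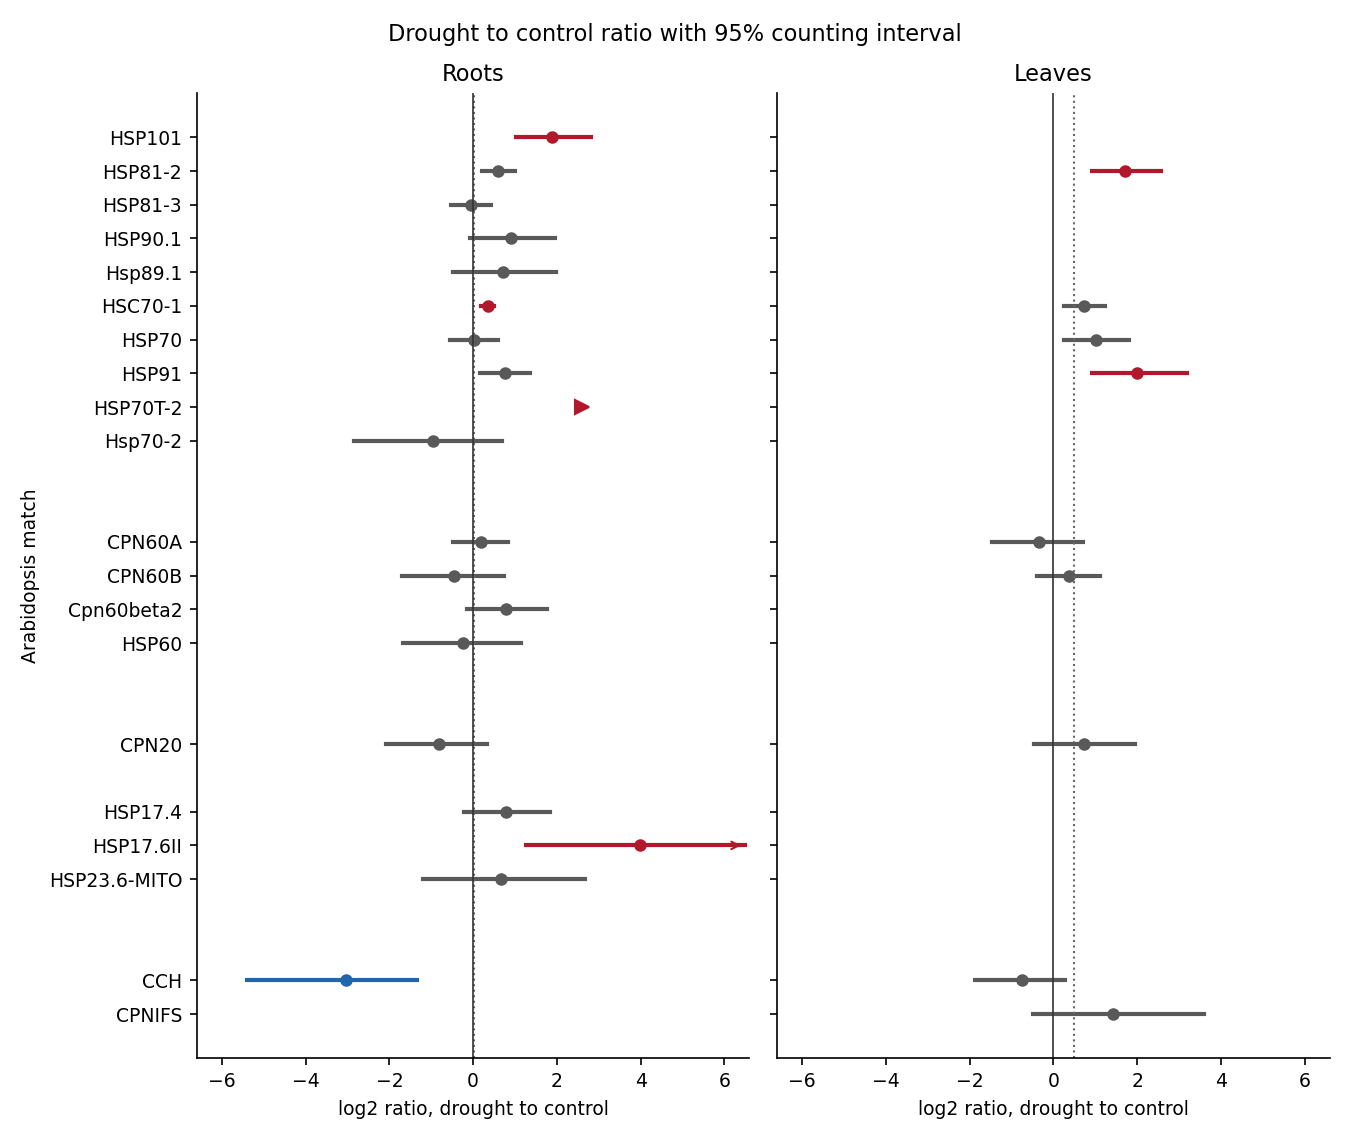
Log2 ratio of drought to control shares for the chaperone genes with at least 10 reads, with 95% counting intervals, in roots (left) and leaves (right). Red marks genes up-regulated and blue the gene down-regulated in the MARS model. The triangle is the ratio with the control set to 3 reads, for a gene without a control read. The arrow marks an interval that runs off the axis, and the dotted line is the median of all genes with at least 10 reads. HSP17.6II lies far to the right, with an interval of the ratio of 2.41 to 670, CCH lies to the left in roots, and the dotted line is at 0.02 in roots and 0.49 in leaves.

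By the naming rule, 5 small heat shock proteins were found in roots and 1 in leaves. All 5 in roots had a higher share under drought, against 51.0% of all root genes, and 1 was up-regulated. HSP18.2 and HSP21 had no control read, so that, once detected, they could only be higher under drought. The intervals of HSP17.4 and HSP23.6-MITO included 1. Small HSPs under other symbols did not all have a higher share. HSP17.6II, of cytosolic class II, had 1 read under control and 14 under drought conditions. The ratio of 15.8 has a wide counting interval, 2.41 to 670, and an unadjusted p of 0.000155 by the MARS model. The reads were split over an isogroup with 1 and 11 reads and another with 0 and 3, 70% and 72% identical to the Arabidopsis protein, and neither was called alone. This call was lost after Benjamini-Hochberg adjustment over all root genes.

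HSP17.4, of cytosolic class I, had most reads of the small HSPs, 15 and 23 in roots over 7 isogroups, 1.74-fold (0.867 to 3.58). None of its isogroups exceeded 11 reads in all. HSP18.2, of the same class, went from 0 to 4 reads, the plastid HSP21 from 0 to 2 and the mitochondrial HSP23.6-MITO from 5 to 7. Together the small HSPs of roots held 21 and 50 reads, 2.69 times the control share (1.59 to 4.72), and between 2.38 and 2.62 times with other totals. This ratio depends on the naming rule. Another 5 small HSP loci without an HSP symbol, looked up after the counts were seen, had reads in roots, and 2 of them had a lower share under drought. Among them, AT5G51440 had 19 and 16 reads, AT1G07400 had 6 and 2, and AT1G53540 had 4 and 13. With these loci and each isogroup counted once, the small HSPs of roots held 48 and 80 reads, 1.89 times the control share (1.30 to 2.76), and 1.67 to 1.83 times with other totals.

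In leaves HSP17.4 had 1 and 2 reads. The loci AT1G53540, with 10 and 3 reads, and AT1G07400, with 3 and 6, had more. None was called, and the 3 together held 14 and 11 reads, a ratio of shares of 1.05 (0.430 to 2.48) that was below 1 with each other total tried.

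No chaperonin or co-chaperonin among the members was called in either tissue. CPN60A, the alpha subunit of the plastid chaperonin that folds the large subunit of Rubisco, had 41 and 41 reads in roots and 22 and 13 in leaves. The beta subunit CPN60B had 17 and 11 reads in roots and 33 and 32 in leaves, and a second beta subunit, Cpn60beta2, had 17 and 26 in roots. Cpn60beta3 had 2 and 2 in leaves. The mitochondrial chaperonin HSP60 had 12 and 9 reads in roots and 4 and 2 in leaves, and HSP60-3A had 2 and 4 in roots.

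Summed, the chaperonins held 89 and 91 reads in roots, a ratio of shares of 1.16 (0.854 to 1.57), and 61 and 49 in leaves, a ratio of 1.07 (0.719 to 1.58). The leaf ratio was between 0.721 and 0.892 with other totals, so its direction depends on them. The root interval includes the 1.27-fold of HSC70-1.

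CPN20, the plastid co-chaperonin that caps the CPN60 barrel, had 20 and 10 reads in roots, 1.77-fold lower under drought (0.790 to 4.23), and 12 and 15 in leaves. Its root isogroups differed. One had 11 reads under control and none under drought conditions, the other had 9 and 10. With the isotig with most reads alone the root ratio of CPN20 was 1.20, higher under drought, and with all isotigs summed it was 0.259 and CPN20 was down-regulated. The mitochondrial co-chaperonin CPN10 had 4 and 4 reads in roots and no isotig in leaves.

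The only down-regulated member, CCH, is a copper chaperone, which hands copper ions to transporters and is not a protein chaperone. It had 28 reads under control and 3 under drought conditions of roots, 8.25-fold lower under drought (2.55 to 42.4), with an unadjusted p of 6.15e-06 by the MARS model. Both of its isogroups were lower, from 23 to 3 and from 5 to 0 reads, and were 78% identical to the Arabidopsis protein. The reads of the larger one also count for ATX1, a related copper chaperone that another of its isotigs matches. In leaves CCH had 27 and 12 reads and was not called, with isogroups of 13 and 8 and of 14 and 4 reads. CPNIFS, a plastid cysteine desulfurase with a similar symbol, is also no protein chaperone, and had 2 and 2 reads in roots and 4 and 8 in leaves. Without these 2 genes, the share of the remaining members was 1.33 times the control share in roots (1.23 to 1.44) and 1.82 times in leaves (1.51 to 2.20).

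Called isogroups were counted as well as genes. On their own, 5 root isogroups of the members were up-regulated and 1 was down-regulated, and 2 leaf isogroups were up-regulated. Over all root isogroups 2.68% were up-regulated and 3.26% down-regulated. Over all leaf isogroups these shares were 3.55% and 2.53%. The 5 in roots were isogroups 855 and 4489 of HSC70-1, 4137 of HSP101, 1758 of HSP91 and 4655 of HSP70T-2. In all, 4 root isogroups of the members also count under another gene, namely those that CCH shares with ATX1, Hsp70b with ERD2, HSP23.6-MITO with AT5G51440 and Cpn60beta2 with UBP25. Only 30 of the 65 root isogroups and 10 of the 30 leaf isogroups of the members had at least 10 reads.

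Whether roots and leaves differed in their response was tested for the 14 members found in both. None passed an adjusted p under 0.05 in a z test of the difference of the log ratios, against 4.15% of the 5500 genes in both tissues. The smallest adjusted p was 0.14, for HSP81-2, whose log2 ratio was 1.10 lower in roots than in leaves. At an unadjusted p under 0.05 there were 4, namely HSP81-2, HSP91, HSP70 and CCH, and all 4 had the lower log2 ratio in roots. With these totals the median log2 ratio over all genes with at least 10 reads was also lower in roots, 0.02 against 0.49 in leaves. The smallest adjusted p of the z test among the members was 0.43 with TMM and 0.0598, close to the threshold, with a minimum of 10 reads. HSC70-1, HSP101 and CCH were therefore called in roots only, and HSP81-2 and HSP91 in leaves only, without a detectable difference between tissues at this depth. With all isotigs summed, a count in which reads of shared contigs repeat, HSC70-1, HSP81-2 and HSP91 were up-regulated in both tissues, and 7 members passed the test of the difference.

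Genes around the chaperones were taken from lists by Arabidopsis locus. Heat shock factors, a family of which some members switch on HSP genes, had 11 of 21 loci measured in roots. Of these, HSFC1 (7 and 47 reads) and HSFA6B (7 and 27 reads) were up-regulated and none was down-regulated. The median log2 ratio of the 11 was 1.76, against 0.09 over all root genes. This median is the value of a gene with 0 and 3 reads, such as AT-HSFA5, with 0 set to 1. Most of the 11 had under 10 reads. In leaves 6 were measured, with a median log2 ratio of 0.70 against 0.41 over all leaf genes. HSFC1 was up-regulated there, from 1 to 12 reads, a call lost with TMM and size factors.

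Co-chaperones of HSP70 and HSP90 had 24 of 30 loci measured in roots. The J-domain protein J3, which stimulates the ATPase of HSP70, had 87 and 131 reads, 1.70-fold higher under drought (1.29 to 2.26), and was up-regulated. The nucleotide exchange factor BAG1 had 36 and 10 reads, 3.18-fold lower (1.55 to 7.19), and was down-regulated. In leaves 14 were measured and J3 was up-regulated, from 27 to 52 reads. The root call of J3 was kept with TMM and lost with the other totals. Its leaf call was kept with isogroup totals and lost with the others.

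Of 14 ER lectin chaperones and disulfide isomerases, 8 were measured in roots without a call, with a median log2 ratio of -0.76, and 5 in leaves, where the disulfide isomerase UNE5 was up-regulated from 9 to 31 reads, a call lost with TMM. Of 15 subunits of the cytosolic CCT chaperonin and prefoldin, 14 were measured in roots without a call and 10 in leaves. There the CCT subunit TCP-1 was up-regulated from 3 to 16 reads, a call kept with isogroup totals and lost with the other totals. Summed, these subunits held 173 and 227 reads in roots, 1.48 times the control share (1.21 to 1.82). In leaves they held 30 and 66 reads, 2.93 times (1.87 to 4.67). These sums were not computed with other totals. Of 5 Clp ATPases, plastid and mitochondrial relatives of HSP101, 3 were measured in each tissue. None was called in roots. In leaves ERD1 had 18 and 82 reads, 6.06-fold higher (3.61 to 10.7), and CLPC1 had 216 and 322, 1.98-fold higher (1.66 to 2.37). Both were up-regulated, also with each other total tried, but CLPC1 was not called with an assumed coefficient of variation of 0.2 between libraries, nor either gene with 0.4. Of 5 heat-induced genes outside the chaperones, all were measured in roots, with GolS1, a galactinol synthase, up-regulated from 3 to 16 reads, a call kept with TMM and lost with the other totals, and 2 in leaves without a call. With an assumed coefficient of variation of 0.2, only HSFC1 in roots and ERD1 in leaves kept their calls among the called genes of these 6 lists.

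HSP genes whose Arabidopsis symbols fall outside the naming rule were also looked up. Of 29 such loci, chosen after the counts were seen, 13 were measured in roots and 11 in leaves. The mitochondrial HSP70 MTHSC70-2 had 21 and 53 reads in roots, 2.86-fold higher (1.69 to 4.98), and was up-regulated. The plastid HSP70 cpHsc70-1 had 71 and 98 reads in leaves, 1.84-fold higher (1.34 to 2.53), and was up-regulated, a call lost with each other total tried. The others were not called.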

How the data were processed

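The authors sequenced cDNA of 4 pools by pyrosequencing and processed the reads with GS FLX software 2.8. They assembled both libraries of a tissue jointly (GS De Novo Assembler 2.6, default settings for cDNA), and their deposited tables give a read count per isotig for each library. Reads of contigs shared by isotigs repeat in each isotig. The authors also deposited the best BLAST match of each isotig with its identity in percent. Their normalized read values and their own comparison (log2 ratios, z-scores and p-values) were not used, nor were singletons, GO lists and RT-qPCR. Totals per library and gene reads stand in the report, and intervals and floors cover counting error only.

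Counts were joined to matches at an E-value of 0.001 or lower. For each gene, the isotig with most reads in each isogroup was taken and summed. The MARS model (the authors used DEGseq 2.6) was written again in Python 3.11.15 (numpy 2.4.6, scipy 1.17.1, pandas 2.3.3), fitted to all genes of a tissue, with 0 set to 1, the sums of gene counts as totals, and an unadjusted p under 0.001. It was tested on simulated data. Folds have exact binomial intervals. Where 1 library had no read, the fold given sets 3 reads in it, which is not a confidence limit. Where both had at most 3 reads no fold is given. The difference between tissues used a z with Poisson variance and 0.5 added to each count, adjusted by Benjamini-Hochberg over 5500 genes. Levels per kilobase sum reads over isotig length.

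Named were all called members, HSP101, the member with most reads of each family, members that differed between tissues, called genes of the related lists (at most 3 per tissue and list), and isogroups of HSP101 and of named members with 2 or more isogroups of at least 10 reads. Other members were added so that each was accounted for. Members and lists were chosen with earlier results of these data known, and 1 list was added after the counts were seen. Alternatives were adjustment by Benjamini-Hochberg, Fisher's exact test, the exact test of edgeR 4.0.16 that assumes a coefficient of variation (0.2 or 0.4), other totals (sequenced reads, isogroup reads, TMM, and DESeq2 1.42.0 size factors, R 4.3.3), and other filters and ways to sum isotigs. Figures were drawn with matplotlib 3.10.9. No wheat gene identifier joins the isotigs to the reference table, so no genome position or sequence is given.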

Additional observations from a re-analysis of the deposited data

How the results depend on the processing

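No paired analysis was possible because each tissue and condition had 1 library, and no library could be left out. The 4 up-regulated root members became 1 (HSP70T-2) with an assumed coefficient of variation between libraries of 0.2, 0 with 0.4, 2 (HSP101 and HSP70T-2) when only the isotig with most reads was counted, and 6 with all isotigs summed (HSP81-2 and HSP91 added). The 1 down-regulated root member became 0 with an assumed coefficient of variation of 0.4 and 2 (CCH and CPN20) with all isotigs summed. The 2 up-regulated leaf members became 0 with an assumed coefficient of variation of 0.2, 0 with 0.4, 0 with TMM, 1 (HSP81-2) with size factors and 5 with all isotigs summed. The members that differed between tissues went from 0 to 7 with all isotigs summed, a count in which reads of shared contigs repeat. Fisher's exact test, a minimum of 10 reads, 0 set to 0.5 and an E-value of 1e-10 moved none of these counts of calls. Of the log2 ratios of single members under the alternatives, 24 lost a call, 5 gained one, 251 kept their side of the threshold, and none of the called ratios changed sign. Ratios that were not called did so for CPN20 in roots with the isotig with most reads alone (log2 ratio 0.27) and for CPN60A in leaves with all isotigs summed (0.14). That of HSP70 in roots, 0.02 as reported, did so with each other total tried (-0.16 to -0.02). Leaving out 1 isogroup of HSC70-1 or HSP101, chosen after seeing the data, ended their root calls at log2 ratios of 0.24 and 0.92. The calls of HSC70-1 in roots were also lost at a minimum of 2-fold. The share of up-regulated among all called leaf genes was 66.2% as reported, 48.8% with sequenced reads, 52.8% with isogroup reads, 35.3% with TMM and 43.7% with size factors, and the leaf median log2 ratio 0.49, 0.18, 0.23, -0.07 and 0.08. In roots the share was 41.3% as reported and 31.5% to 38.1% with these totals. The cause of these changes was not tested, and with 7 root and 6 leaf members under 10 reads, depth limits what could be called.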
